A study of Mus musculus with 22 samples.

Results

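The genes examined here are 37 enzymes and regulators of lipid and cholesterol synthesis, measured in whole hearts of mice with a mutant thyroid hormone receptor and of wild-type mice. They were taken by gene symbol, with the probe set of highest mean for each gene and a mean log2 intensity above 4. A named probe set was found for 35 of the 37, and all 35 were above that level, out of 18510 named genes above it in the series. Scd2 and Srebf1 are not analysed here. By role, 4 members make fatty acids, 9 desaturate or elongate them, 5 build glycerolipids, 3 regulate the pathway, and 14 make cholesterol, 6 of them up to squalene and 8 after it.

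Per the labels, all animals were male C57/BL6NCr mice aged 3 to 6 months that were housed singly at 30 °C, while the study's methods describe group housing in general. The TRα1+m mice were heterozygous for the R384C substitution of thyroid hormone receptor α1, a germline mutation that weakens binding of the hormone, so that every cell carried it throughout life. T3, the active thyroid hormone, was given at 0.5 mg/L in drinking water for 12 days, and the drinking water of all 4 groups held 0.01% bovine serum albumin. Clariom S Mouse arrays were available for 10 TRα1+m mice, 5 given T3 and 5 given water, and for 12 wild-type mice, 6 given T3 and 6 given water. A single dose and duration were used, and whole heart mixes heart muscle with vessel, connective tissue, immune and any attached fat cells.

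Fatty acids are built from acetyl-CoA, desaturated and elongated, and then attached to glycerol to give phospholipids and triglycerides. Cholesterol is built from the same precursor through mevalonate, squalene and lanosterol. The sterol regulatory element binding proteins (SREBPs) activate many genes of both branches, and the Insig proteins hold them in the endoplasmic reticulum when sterols are plentiful. In liver, T3 is known to raise expression of many fatty acid synthesis genes, while the adult heart mainly burns fatty acids and makes few of them.

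Levels are log2 intensities after joint quantile normalization of the 22 arrays, because the deposited values of the 2 genotypes lay on different scales: the median gene probe set was 0.357 higher in TRα1+m on water and 0.35 higher on T3, and negative-control probe sets were shifted as well. Differences are given on the log2 scale, each with its standard error from limma, and one is called where its Benjamini-Hochberg adjusted p over 21092 gene probe sets was below 0.05. Group levels are means with SD, and levels of different genes cannot be compared, since probe sets differ in sensitivity. Scd3, Mvk and Sqle lay below the median negative-control probe set in all 4 groups, as did Scd4 in wild-type mice on T3, Elovl6 and Fdps in both wild-type groups, and Msmo1 in both water groups. A signal above background was not shown for them there. In TRα1+m on water the Elovl6 mean exceeded the negative-control level of 6.40 through 1 array alone, and the other 4 read 5.54 to 6.17.

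The comparison of T3 with water asked which of these genes respond to the hormone in each genotype. In TRα1+m hearts T3 raised 6 members and lowered 2 of 35, or 22.9%, where 16.5% of all probe sets tested were called, 9.46% higher and 6.99% lower. In wild-type hearts it raised 2 and lowered 3, or 14.3%, against 12.7% of all probe sets, 6.74% higher and 5.96% lower. The members called in both were Scd4, a stearoyl-CoA desaturase found mainly in mouse heart, and Fdft1, squalene synthase, which were lower on T3, and Elovl5, an elongase of polyunsaturated fatty acids, and Lpin1, a phosphatidate phosphatase, which were higher. The ranges of the T3 and water arrays did not overlap for 7 members in TRα1+m (20%, against 13.1% of all probe sets) and for 6 members in wild type (17.1%, against 7.75%). The median difference over the members was 0.19 in TRα1+m and 0.07 in wild type, where the medians of all probe sets were 0.00 and 0.01. A difference in the T3 effect between genotypes was called for 0 of 35 members by the limma interaction test, which called 0.398% of all probe sets. In that test 7 members had an unadjusted p below 0.05, for which no share of all probe sets is given here. A per-gene model without moderation also called 0. Without array 4 of both water groups, which stood apart as described further on, T3 raised 7 and lowered 2 members in TRα1+m and raised 5 and lowered 2 in wild type. The share of all probe sets called without these arrays is not given here.

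**Figure D1:**
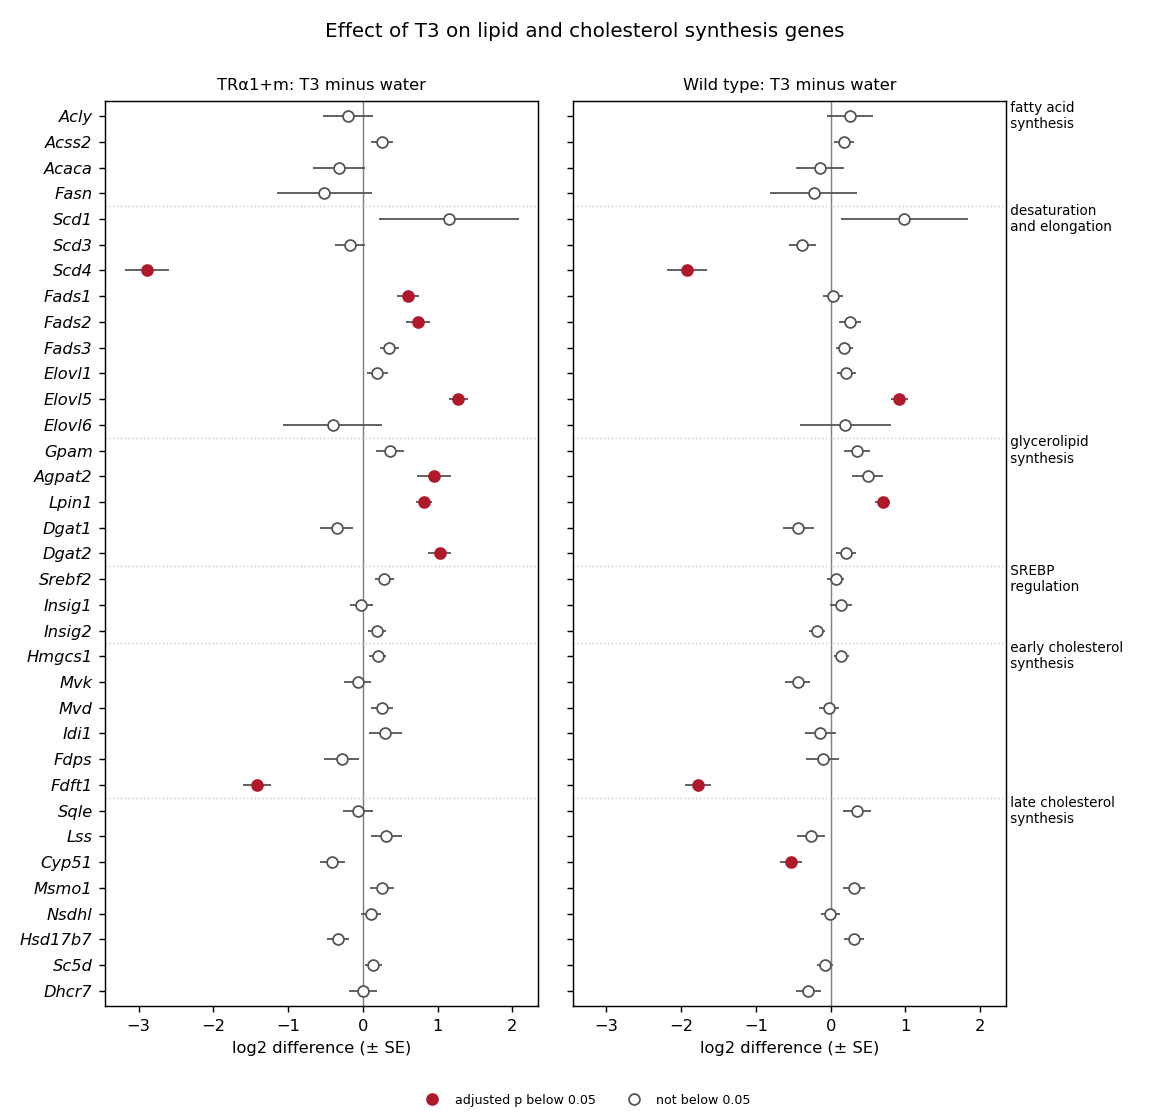
Log2 difference between T3 and water (points, with standard error bars) for each of the 35 members in TRα1+m hearts (left) and wild-type hearts (right), grouped by role, with filled points for an adjusted p below 0.05. Scd4 and Fdft1 lie far to the left in both panels and Elovl5 and Lpin1 to the right, and the bars of Fasn, Scd1 and Elovl6 are the widest.

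The bases just before the start sites of Scd4, Elovl5 and Lpin1 are shown because these genes had some of the smallest adjusted p-values for T3 in both genotypes. Hmgcs1, the enzyme that opens the mevalonate branch, is shown as the single member whose promoter held the sterol element searched for. The sequences are the 250 bases upstream of the start in RefSeq on build GRCm38.p6, at chr19:44333076-44333325 on the plus strand for Scd4, chr9:77917115-77917364 on the plus strand for Elovl5, chr12:16610967-16611216 on the minus strand for Lpin1 and chr13:119690101-119690350 on the plus strand for Hmgcs1. Capitals mark matches on either strand to any of 4 motifs, none of which overlapped another match. The core of the sterol regulatory element was searched as TCACNCCAC, and the E-box as CACGTG. The CCAAT box appears as ATTGG where it lies on the other strand. The half-site bound by nuclear receptors was searched as AGGTCA, which appears as TGACCT where it lies on the other strand.
Scd4: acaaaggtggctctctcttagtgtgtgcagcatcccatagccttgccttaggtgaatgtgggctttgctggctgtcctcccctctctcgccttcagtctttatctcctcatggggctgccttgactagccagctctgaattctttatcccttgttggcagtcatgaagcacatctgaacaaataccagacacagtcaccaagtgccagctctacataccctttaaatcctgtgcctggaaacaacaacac
Elovl5: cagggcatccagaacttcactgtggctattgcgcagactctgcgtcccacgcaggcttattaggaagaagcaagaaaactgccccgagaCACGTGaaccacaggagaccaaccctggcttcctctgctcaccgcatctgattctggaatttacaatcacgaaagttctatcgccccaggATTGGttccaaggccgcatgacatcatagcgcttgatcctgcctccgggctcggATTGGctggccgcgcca
Lpin1: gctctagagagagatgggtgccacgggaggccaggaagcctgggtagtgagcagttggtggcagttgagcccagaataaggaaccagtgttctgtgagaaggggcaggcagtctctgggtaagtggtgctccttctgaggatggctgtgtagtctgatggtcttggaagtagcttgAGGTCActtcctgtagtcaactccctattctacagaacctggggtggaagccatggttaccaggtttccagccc
Hmgcs1: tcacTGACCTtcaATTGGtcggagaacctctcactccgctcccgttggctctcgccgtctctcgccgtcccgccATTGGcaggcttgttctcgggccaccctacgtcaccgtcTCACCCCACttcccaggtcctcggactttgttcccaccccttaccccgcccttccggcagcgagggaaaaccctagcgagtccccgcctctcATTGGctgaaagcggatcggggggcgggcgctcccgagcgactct
Elovl5 held an E-box beginning 161 bases before the start and 2 CCAAT boxes, Lpin1 held a half-site beginning 74 bases before it, and Scd4 held none of the 4 motifs in this window. Hmgcs1 held the sterol element 137 bases before the start, 3 CCAAT boxes and a half-site. An entry was found for 29 of the 37 members and none for Fdft1. The sterol element was in 1 of these 29, where 1.22% of all genes with an entry held it, the E-box in 5 of 29 (6.86% of all genes), the half-site in 8 of 29 (15.8%) and the CCAAT box in 21 of 29 (37.5%). All 11 cholesterol synthesis members with an entry held a CCAAT box. A match is a run of letters and not a measured binding site.

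Among the desaturases, Scd4 had the widest separation of the 4 groups. Its level was 9.09, 8.89, 9.01, 9.56 and 10.08 in TRα1+m mice on T3, against 13.03, 11.84, 12.34, 12.18 and 11.68 in TRα1+m mice on water. In wild type the lowest, median and highest levels were 6.10, 6.27 and 6.57 on T3, against 7.42, 8.24 and 9.40 on water. Every T3 array lay below every water array of its genotype, and every TRα1+m array on water lay above every array of the other 3 groups. T3 lowered Scd4, with a log2 difference of -2.89 ± 0.29 in TRα1+m (7.41-fold, adjusted p = 1.08e-07, lower in 5 of 5 arrays) and of -1.92 ± 0.27 in wild type (adjusted p = 1.69e-05, lower in 6 of 6). The wild-type mean on T3 lay below the median negative control, and against that control level Scd4 was at least 3.69-fold lower on T3 in wild type. The interaction, -0.97 ± 0.40, was not called (adjusted p = 0.48) and rests in part on that group.

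**Figure D2:**
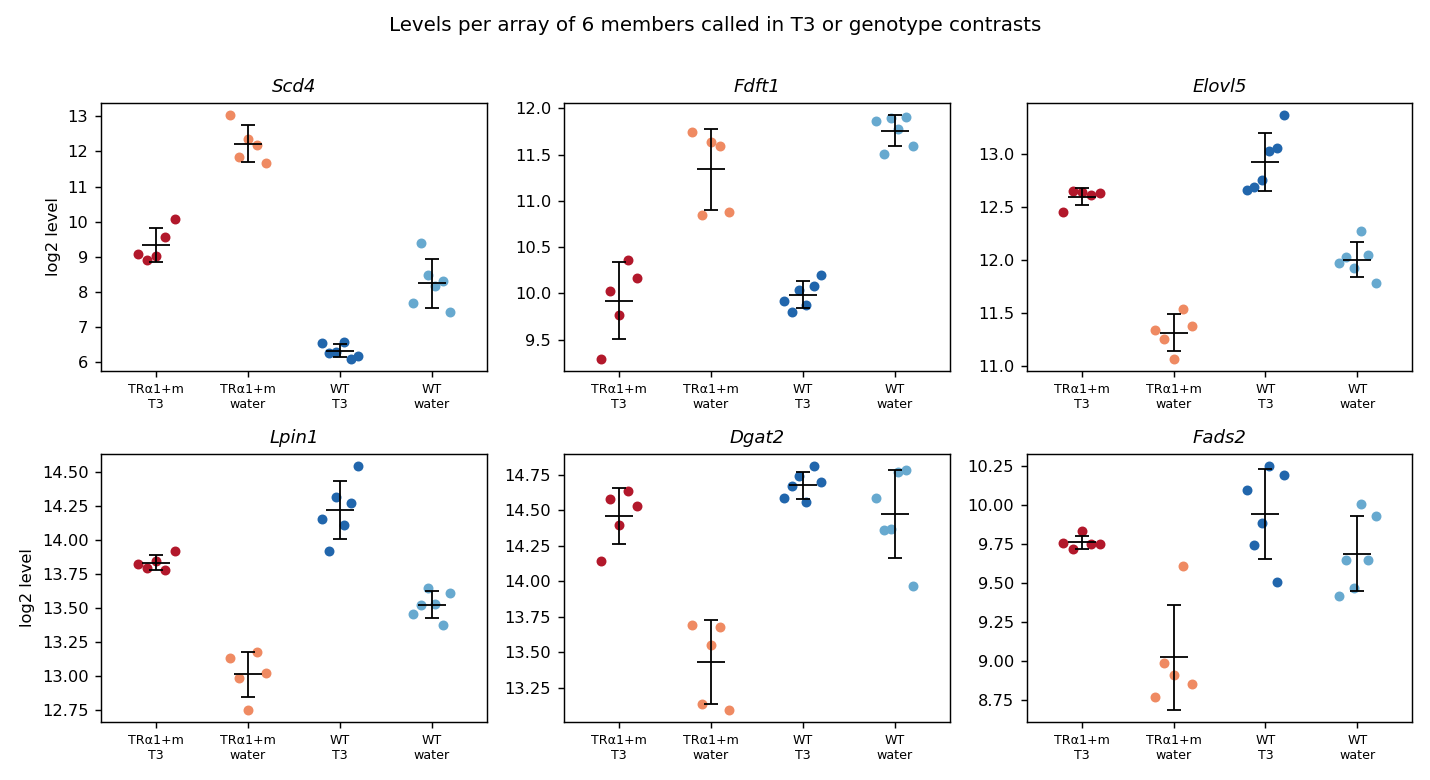
Log2 level on each array (points) of Scd4, Fdft1, Elovl5, Lpin1, Dgat2 and Fads2 in the 4 groups, with the group mean and SD as bars, each panel on its own axis. Scd4 spans 6.10 to 13.03 with TRα1+m water arrays highest, Fdft1 is lower on T3 in both genotypes, and Dgat2 is lowest in TRα1+m mice on water.

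The genotype comparison asks how the mutant receptor changes these genes with and without T3. Scd4 averaged 12.22 ± 0.53 in TRα1+m hearts on water (n = 5) and 8.24 ± 0.69 in wild-type hearts on water (n = 6), a difference of 3.97 ± 0.28 or 15.7-fold (adjusted p = 1.16e-09). On this scale no other probe set of the 21092 had as large a positive genotype difference on water. On T3 it averaged 9.32 ± 0.49 in TRα1+m and 6.32 ± 0.19 in wild type, a difference of 3.00 ± 0.28 (adjusted p = 6.9e-08), or at least 7.81-fold against the negative-control level of the wild-type arrays. T3-treated TRα1+m hearts were still above untreated wild-type hearts by 1.08 ± 0.28 (adjusted p = 0.00371), with ranges that overlapped. Scd4 was called in these 3 comparisons under each of the 33 alternatives run.

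Scd3, a close relative of Scd4, had levels of 5.62, 5.87, 6.38, 6.38 and 6.60 in TRα1+m mice on T3 and 6.15, 6.37, 6.30, 6.12 and 6.77 in TRα1+m mice on water. The lowest, median and highest wild-type levels were 4.72, 5.19 and 5.46 on T3 and 5.15, 5.53 and 6.17 on water. On T3 the genotypes did not overlap, and on water 1 wild-type array, number 4, reached into the TRα1+m range. The Scd3 probe set read higher in TRα1+m by 1.02 ± 0.19 on T3 (adjusted p = 0.00034) and by 0.81 ± 0.19 on water (adjusted p = 0.00216). All 4 group means were below the negative-control level, so that no expression of Scd3 was shown and no fold is given. The Scd genes are similar in sequence, and whether a probe set also binds RNA of another Scd gene was not tested.

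Scd1, the major stearoyl-CoA desaturase of fat and liver, was dominated by 1 array in each water group. Its levels were 13.14, 13.35, 12.33, 13.70 and 12.59 in TRα1+m mice on T3, against 11.34, 10.01, 9.86, 16.79 and 11.35 in TRα1+m mice on water. In wild type the lowest, median and highest levels were 11.05, 11.40 and 13.48 on T3, against 9.75, 10.44 and 13.86 on water. The T3 arrays lay above the water arrays in both genotypes except for this high water array, array 4 in each group. Over all arrays the T3 difference was 1.15 ± 0.93 in TRα1+m (adjusted p = 0.506) and 0.99 ± 0.85 in wild type (adjusted p = 0.551). Without array 4 of both water groups, a choice made after seeing the data, it was 2.38 in TRα1+m (adjusted p = 0.000535) and 1.59 in wild type (adjusted p = 0.00995). Leaving out the TRα1+m array alone was enough for the call in TRα1+m (adjusted p = 0.012). Scd1 differed by genotype by 1.18 ± 0.89 on T3 (adjusted p = 0.322) and by 1.01 ± 0.89 on water (adjusted p = 0.388). Leaving out both water arrays kept the difference on T3 and changed only the shared estimate of spread (adjusted p = 0.0266). A fit of the 2 T3 groups alone also called the difference on T3 (adjusted p = 0.0307). Treated TRα1+m hearts differed from untreated wild-type hearts by 2.16 ± 0.89 (adjusted p = 0.0568), a difference called on the deposited values (2.29, adjusted p = 0.0344) and without both arrays (2.76, adjusted p = 3.23e-05).

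The same 2 arrays stood apart in Fasn and Acaca and in markers of fat cells, and the TRα1+m one also in Acly and Elovl6, while neither did in Acss2. Fasn, fatty acid synthase, read 12.03 on array 4 of the TRα1+m water group, where the other 4 arrays of the group ranged from 6.65 to 7.97. Elovl6, an elongase of saturated fatty acids, read 11.01 there (others 5.54 to 6.17), Acly, which makes cytosolic acetyl-CoA from citrate, 11.84 (others 9.25 to 9.71) and Acaca, acetyl-CoA carboxylase, 10.05 (others 7.62 to 7.98). On array 4 of the wild-type water group Fasn read 9.83 (others 7.63 to 8.25) and Acaca 8.89 (others 7.49 to 7.86). The brown fat gene Ucp1 read 11.99 on the TRα1+m array (others 4.17 to 6.69) and 7.40 on the wild-type array (others 3.26 to 5.86). Adipoq, the fat cell hormone adiponectin, read 10.84 (others 6.08 to 8.39) and 12.14 (others 4.92 to 9.60), and Plin1, which coats fat droplets, 7.93 (others 4.61 to 5.63) and 7.62 (others 3.78 to 4.87). The log2 of the summed intensity of 7 white fat markers ranged from 8.44 to 9.44 in TRα1+m mice on T3, against 8.05 to 11.63 in TRα1+m mice on water, and from 7.75 to 9.06 in wild-type mice on T3, against 7.59 to 12.59 in wild-type mice on water. None of the 7 white fat markers was called in any limma contrast, nor had an unadjusted p below 0.05, and their part in the results was not tested. Of these 7, 6 had a mean below the negative-control level in wild type on T3 and 5 in each other group. In bulk tissue, fewer cells of a type and less RNA per cell cannot be told apart.

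**Figure D3:**
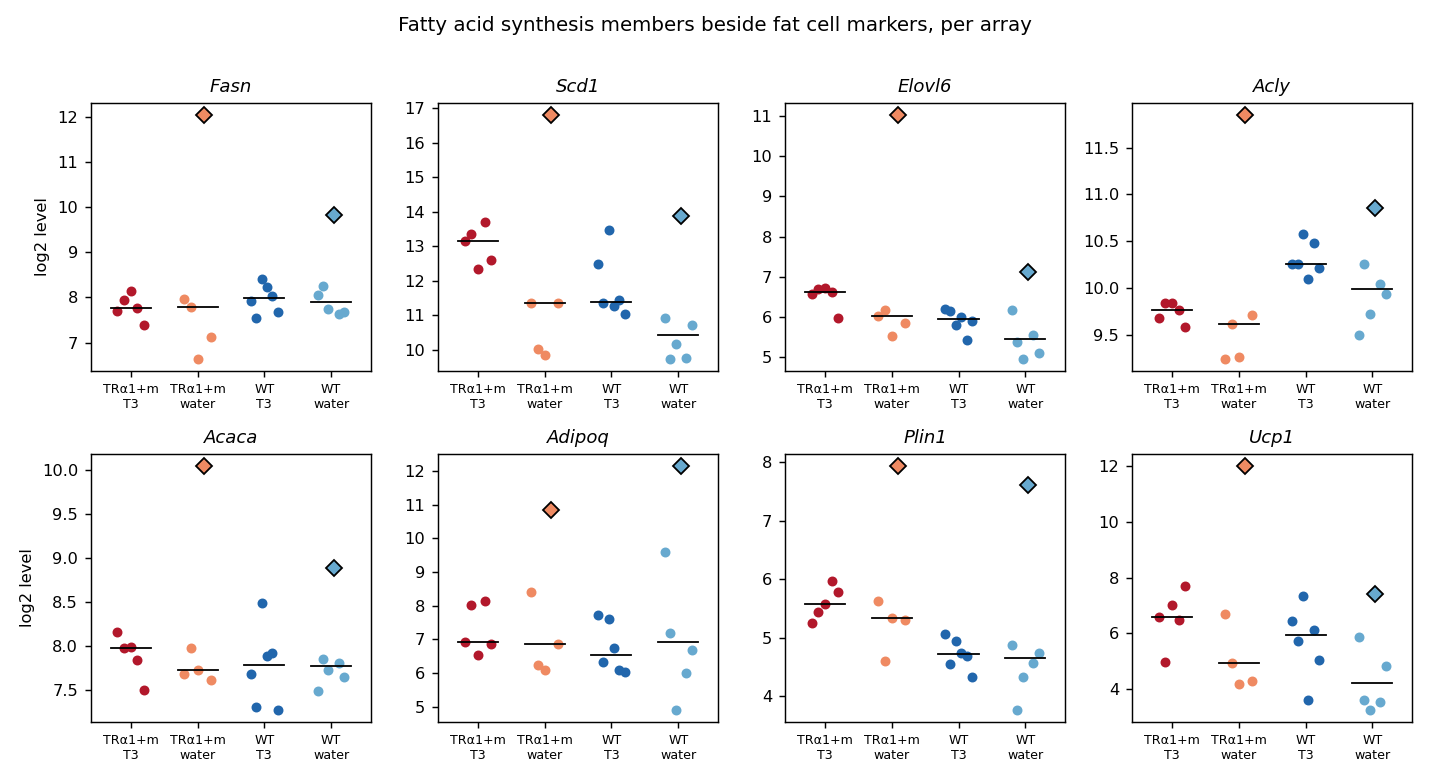
Log2 level on each array of 5 members and of the fat cell markers Adipoq, Plin1 and Ucp1 in the 4 groups, with the group median as a bar, array 4 of each water group as a diamond, and each panel on its own axis. The diamond of TRα1+m mice on water is the highest point of all 22 for the 5 members, Plin1 and Ucp1, and that of wild-type mice on water is the highest of its group in each panel.

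None of the 4 fatty acid synthesis members was called for T3 or genotype over all arrays on this scale. Acss2 by genotype on water was -0.40 after centring on the gene median (adjusted p = 0.03) and -0.36 after centring on negative controls (adjusted p = 0.0464), and Acly on T3 was -0.83 after the first (adjusted p = 0.0448). For T3 their differences ran from -0.52 (Fasn, SE 0.63) to 0.26 in TRα1+m and from -0.23 (Fasn, SE 0.58) to 0.26 in wild type. Acss2, which makes acetyl-CoA from acetate, averaged 9.96 ± 0.21 in TRα1+m on T3, 9.70 ± 0.29 in TRα1+m on water, 10.02 ± 0.21 in wild type on T3 and 9.84 ± 0.18 in wild type on water. Without both arrays Fasn still was not called for T3, with 0.42 in TRα1+m (adjusted p = 0.296) and 0.10 in wild type (adjusted p = 0.859). Without them Acly was called by genotype on water (-0.43, adjusted p = 0.03) and for T3 in wild type (0.42, adjusted p = 0.0463). Its genotype difference on T3 was -0.57 with or without them, since both are water arrays. Only the shared estimate of spread changed, and it was then called (adjusted p = 0.0026). It was also called in a fit of the 2 T3 groups alone (adjusted p = 0.00192). On T3 Acly ranged from 9.58 to 9.84 in TRα1+m and from 10.09 to 10.58 in wild type, without overlap. Over all arrays Elovl6 differed for T3 by -0.41 ± 0.67 in TRα1+m (adjusted p = 0.789) and by 0.20 ± 0.61 in wild type (adjusted p = 0.901). By genotype Elovl6 differed on T3 by 0.60 ± 0.64 (adjusted p = 0.49), against wild-type levels below the negative control. This difference was called without both arrays (adjusted p = 0.0216) and in a fit of the 2 T3 groups alone (adjusted p = 0.0126). Its size stayed the same, since no T3 array was left out. On water Elovl6 differed by 1.20 ± 0.64 (adjusted p = 0.138, and 1.67 with adjusted p = 0.0255 on the deposited values). Without both arrays the difference on water was 0.46 (adjusted p = 0.105), with the remaining TRα1+m arrays and the wild-type mean below the negative control.

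Elovl5 was raised by T3 in both genotypes. Its levels were 12.45, 12.64, 12.64, 12.61 and 12.63 in TRα1+m mice on T3, against 11.34, 11.25, 11.07, 11.54 and 11.38 in TRα1+m mice on water. The lowest, median and highest wild-type levels were 12.66, 12.89 and 13.36 on T3, against 11.78, 12.00 and 12.27 on water. T3 and water arrays were far apart in each genotype, and the 5 treated TRα1+m arrays were within 0.2 of each other. The T3 difference was 1.28 ± 0.13 in TRα1+m (2.43-fold, adjusted p = 1.04e-07) and 0.92 ± 0.12 in wild type (1.89-fold, adjusted p = 5.74e-06). TRα1+m hearts were lower than wild-type hearts with a difference of -0.69 ± 0.12 on water (adjusted p = 0.00015) and with a difference of -0.33 ± 0.12 on T3 (adjusted p = 0.0424, lost in 12 of 33 alternatives). Treated TRα1+m hearts were above untreated wild-type hearts by 0.59 ± 0.12 (adjusted p = 0.000593, not called after centring on the gene median).

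Fads1 and Fads2, the desaturases that act with Elovl5 on polyunsaturated fatty acids, were raised by T3 in TRα1+m. Fads2 read 9.75, 9.72, 9.83, 9.75 and 9.75 in TRα1+m mice on T3, against 8.76, 8.98, 8.91, 9.60 and 8.85 in TRα1+m mice on water, with the value of 9.60 again from array 4. Its T3 difference was 0.74 ± 0.16 in TRα1+m (adjusted p = 0.00174), against 0.26 ± 0.15 in wild type (adjusted p = 0.309). Fads1 differed by 0.60 ± 0.15 in TRα1+m (adjusted p = 0.0049), against 0.03 ± 0.13 in wild type (adjusted p = 0.934). On water both were lower in TRα1+m, Fads2 with a difference of -0.66 ± 0.15 (adjusted p = 0.00154) and Fads1 with a difference of -0.58 ± 0.14 (adjusted p = 0.00243, not called on the deposited values). Treated TRα1+m hearts and untreated wild-type hearts differed by 0.07 ± 0.15 for Fads2 and 0.02 ± 0.14 for Fads1. The interactions, 0.48 ± 0.22 and 0.57 ± 0.20, were not called (adjusted p = 0.541 and 0.325). Fads3, a relative in the same gene cluster, was higher in TRα1+m on T3 by 0.44 ± 0.12 (adjusted p = 0.00806, not called after centring on the gene median or on negative controls). Elovl1, which elongates very long chains, was called in none of the T3 or genotype contrasts on this scale, with differences from -0.07 to 0.21, and was lower in TRα1+m after centring on the gene median (-0.43 on T3 and -0.41 on water, adjusted p = 0.04 and 0.0486).

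In glycerolipid synthesis, Lpin1, which makes diacylglycerol from phosphatidate, was called in the same directions as Elovl5. Its levels were 13.83, 13.79, 13.85, 13.78 and 13.92 in TRα1+m mice on T3, against 13.13, 12.99, 12.75, 13.17 and 13.02 in TRα1+m mice on water. The lowest, median and highest wild-type levels were 13.91, 14.21 and 14.54 on T3, against 13.38, 13.52 and 13.65 on water. The T3 and water arrays did not overlap in either genotype. T3 raised Lpin1 by 0.82 ± 0.11 in TRα1+m (1.76-fold, adjusted p = 7.34e-06) and by 0.70 ± 0.10 in wild type (1.62-fold, adjusted p = 3.05e-05). It was lower in TRα1+m with a difference of -0.51 ± 0.11 on water (adjusted p = 0.000604) and with a difference of -0.39 ± 0.11 on T3 (adjusted p = 0.00683).

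Dgat2, which adds the last fatty acid to make triglyceride, read 14.14, 14.58, 14.40, 14.64 and 14.53 in TRα1+m mice on T3, against 13.69, 13.13, 13.55, 13.68 and 13.10 in TRα1+m mice on water. The lowest, median and highest wild-type levels were 14.56, 14.68 and 14.81 on T3, against 13.96, 14.47 and 14.78 on water. The TRα1+m water arrays lay below all others, and the wild-type groups overlapped. T3 raised Dgat2 by 1.03 ± 0.15 in TRα1+m (2.04-fold, adjusted p = 2.45e-05), against 0.20 ± 0.14 in wild type (adjusted p = 0.419). The interaction of 0.82 ± 0.21 was the smallest adjusted p of the members, 0.0894, and ranged from 0.0207 to 0.179 over the alternatives. On water Dgat2 was lower in TRα1+m with a difference of -1.04 ± 0.15 (2.06-fold, adjusted p = 8.58e-06), on T3 the difference was -0.22 ± 0.15 (adjusted p = 0.253), and treated TRα1+m against untreated wild type gave -0.02 ± 0.15. The difference on T3 was called after centring on the gene median (-0.64, adjusted p = 0.00326) and on negative controls (-0.52, adjusted p = 0.00854), and that of treated mutants after centring on the gene median (-0.52, adjusted p = 0.0126). These comparisons share arrays with each other.

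Agpat2, which makes phosphatidic acid and is abundant in fat, was higher on T3 in TRα1+m by 0.95 ± 0.23 (adjusted p = 0.00392), with 1 overlapping water array, number 4, at 14.05. Without both arrays numbered 4 on water the difference was 1.22 (adjusted p = 3.86e-05). In wild type it was 0.49 ± 0.21 (adjusted p = 0.137), with ranges that did not overlap. It was called there without both arrays (0.52, adjusted p = 0.0397) or without the TRα1+m one alone (adjusted p = 0.034). A fit of the wild-type groups alone also called it (adjusted p = 0.0126). Leaving out the TRα1+m array alone kept the wild-type difference at 0.49 and changed only the shared estimate of spread. By genotype on T3 Agpat2 differed by 0.44 and was not called over all arrays. That difference was called in a fit of the T3 groups alone (adjusted p = 0.0167) and without both water arrays (adjusted p = 0.041). Gpam, the mitochondrial glycerol phosphate acyltransferase, was lower in TRα1+m with a difference of -0.50 ± 0.18 on T3 (adjusted p = 0.0362) and with a difference of -0.52 ± 0.18 on water (adjusted p = 0.0271), calls that were lost in 6 and 7 of 33 alternatives. Dgat1, the other triglyceride-forming enzyme, was called in no contrast on this scale, with T3 differences of -0.35 ± 0.22 in TRα1+m and -0.43 ± 0.20 in wild type. On the deposited values it was higher in TRα1+m by 0.83 on T3 (adjusted p = 0.00171) and by 0.75 on water (adjusted p = 0.00338).

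None of the 3 measured regulators was called for T3 on this scale. Srebf2, which encodes the SREBP most tied to cholesterol genes, read 10.18, 10.37, 10.40, 9.98 and 10.52 in TRα1+m mice on T3, against 9.73, 10.07, 10.02, 10.06 and 10.14 in TRα1+m mice on water. The lowest, median and highest wild-type levels were 10.47, 10.77 and 11.05 on T3, against 10.57, 10.68 and 10.97 on water. All TRα1+m arrays on water lay below all wild-type arrays, and on T3 the genotypes overlapped. Srebf2 was lower in TRα1+m with a difference of -0.71 ± 0.12 on water (1.63-fold, adjusted p = 9.49e-05) and with a difference of -0.49 ± 0.12 on T3 (adjusted p = 0.00332, not called on the deposited values). Its T3 differences were 0.28 ± 0.13 in TRα1+m (adjusted p = 0.151, and 0.0134 after centring on negative controls) and 0.07 ± 0.12 in wild type (adjusted p = 0.802).

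Insig1 and Insig2 were not called in any contrast on this scale. Insig1 read 9.66, 9.61, 9.58, 9.65 and 9.17 in TRα1+m mice on T3, against 9.23, 9.74, 9.57, 9.89 and 9.33 in TRα1+m mice on water. Its lowest, median and highest wild-type levels were 9.17, 9.65 and 9.88 on T3, against 9.23, 9.36 and 9.76 on water, so that all groups overlapped. Insig2 read 9.05, 9.08, 9.18, 9.23 and 9.10 in TRα1+m mice on T3, against 8.80, 8.97, 8.99, 9.09 and 8.84 in TRα1+m mice on water. Its lowest, median and highest wild-type levels were 8.65, 8.92 and 9.26 on T3, against 8.83, 9.13 and 9.32 on water. Insig2 thus differed by 0.19 ± 0.12 on T3 in TRα1+m and by -0.19 ± 0.11 in wild type, with an interaction of 0.38 ± 0.16 (adjusted p = 0.503). On the deposited values Insig2 was higher in TRα1+m on T3 by 0.49 (adjusted p = 0.0033) and Insig1 on water by 0.36 (adjusted p = 0.0489), whereas Insig2 on water was -0.38 after centring on the gene median (adjusted p = 0.0376) and -0.34 after centring on negative controls (adjusted p = 0.0343).

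In the cholesterol branch, Fdft1, which joins farnesyl units into squalene, was the member most lowered by T3 after Scd4. It read 9.30, 10.02, 9.77, 10.36 and 10.16 in TRα1+m mice on T3, against 11.74, 10.85, 11.64, 11.60 and 10.88 in TRα1+m mice on water. The lowest, median and highest wild-type levels were 9.80, 9.98 and 10.20 on T3, against 11.51, 11.82 and 11.90 on water. T3 and water arrays did not overlap in either genotype, and 2 of the 5 TRα1+m water arrays were lower than the rest of their group. Fdft1 differed by -1.42 ± 0.19 in TRα1+m (2.67-fold lower on T3, adjusted p = 5e-06) and by -1.77 ± 0.17 in wild type (3.42-fold lower, adjusted p = 1.15e-07). The genotype difference was -0.06 ± 0.18 on T3 (adjusted p = 0.817) and -0.42 ± 0.18 on water (adjusted p = 0.0665, called after centring on the gene median, on negative controls and in 4 other alternatives). Treated TRα1+m hearts were 3.57-fold below untreated wild-type hearts (adjusted p = 6.24e-08).

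Most other enzymes of the branch were not called for T3. Of the other 5 early members, from HMG-CoA synthase to farnesyl diphosphate synthase, none was called for T3, with differences from -0.28 to 0.30 in TRα1+m and from -0.44 to 0.14 in wild type. Of the 8 later members Cyp51, lanosterol demethylase, was lower on T3 in wild type with a difference of -0.53 ± 0.15 (adjusted p = 0.0197, lost in 4 of 33 alternatives, without wild-type water array 4 among them at 0.0555 and without wild-type T3 array 6), against -0.41 ± 0.17 in TRα1+m (adjusted p = 0.102). The other 7, namely Sqle, Lss, Msmo1, Nsdhl, Hsd17b7, Sc5d and Dhcr7, the last enzyme of the pathway, were called for T3 in neither genotype. After centring on negative controls Msmo1 was higher on T3 in wild type by 0.41 (adjusted p = 0.0466) and Hmgcs1 in TRα1+m by 0.35 (adjusted p = 0.0392).

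By genotype the cholesterol members split, whereas the called ones among 5 further sterol synthesis genes, described further on, were all higher in TRα1+m. Hmgcs1 averaged 11.79 ± 0.14 in TRα1+m on T3, against 11.23 ± 0.14 in wild type on T3, and 11.59 ± 0.11 in TRα1+m on water, against 11.08 ± 0.20 in wild type on water. The genotypes did not overlap in either treatment, and the difference was 0.56 ± 0.11 on T3 (adjusted p = 0.000363) and 0.50 ± 0.11 on water (adjusted p = 0.000787), though neither was called after centring on the gene median, nor that on water after centring on negative controls. Cyp51 was higher in TRα1+m by 0.74 ± 0.16 on T3 (adjusted p = 0.00103) and by 0.62 ± 0.16 on water (adjusted p = 0.00374, not called after centring on the gene median). Fdps, farnesyl diphosphate synthase, was higher on water by 0.66 ± 0.23 (adjusted p = 0.0225), at least 1.58-fold against the negative-control level, near which the wild-type mean lay, but not without TRα1+m water array 4 (0.53, adjusted p = 0.0778) nor without wild-type water array 3. The probe set of Sqle, squalene epoxidase, read higher on water by 0.60 ± 0.20 (adjusted p = 0.018), with both means below the negative-control level, so that no expression was shown. Mvd, mevalonate diphosphate decarboxylase, was higher on T3 by 0.41 ± 0.14 (adjusted p = 0.0249, lost in 4 of 33 alternatives).

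Lower in TRα1+m were Sc5d, a desaturase of the last steps, with a difference of -0.38 ± 0.11 on T3 (adjusted p = 0.00996, not called on the deposited values) and -0.59 ± 0.11 on water (adjusted p = 0.000191), and Dhcr7 on water with a difference of -0.58 ± 0.18 (adjusted p = 0.0127, not called on the deposited values). Hsd17b7, which acts on sterol intermediates, was lower on T3 with a difference of -0.37 ± 0.14 (adjusted p = 0.0417, lost in 10 of 33 alternatives). Mvk, Idi1, Lss, Msmo1 and Nsdhl were called by genotype in neither treatment on this scale. On the deposited values Msmo1 was higher in TRα1+m by 0.53 on T3 and 0.63 on water (adjusted p = 0.00337 and 0.000689), and Lss and Mvk on T3 by 0.64 and 0.45 (adjusted p = 0.0102 and 0.0254). Nsdhl was lower on water after centring on the gene median (-0.36, adjusted p = 0.0389).

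**Figure D4:**
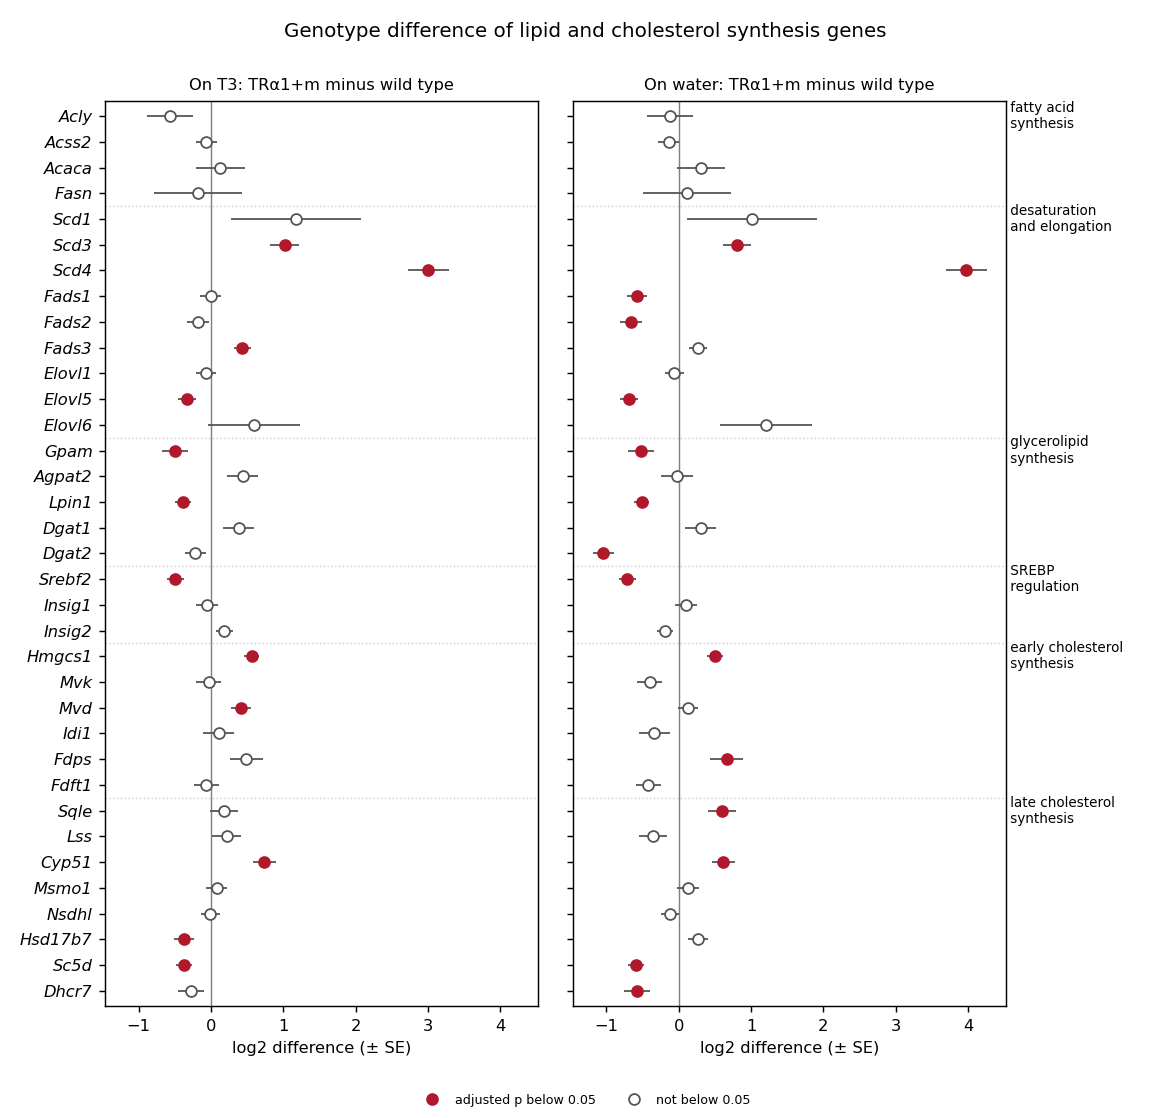
Log2 difference between TRα1+m and wild type (points, with standard error bars) for each of the 35 members on T3 (left) and on water (right), grouped by role, with filled points for an adjusted p below 0.05. Scd4 lies at 3.00 on T3 and 3.97 on water, and no other called member exceeds 1.04 in size in either panel.

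Over all members, the genotype difference was called on T3 for 6 higher and 6 lower members (34.3%, against 35.7% of all probe sets, 17.8% higher and 17.8% lower) and on water for 6 higher and 9 lower (42.9%, against 39.6%, 19.2% higher and 20.4% lower), so that these shares were near those of the whole array. On the deposited values, without the joint normalization, the split was 14 higher and 2 lower on T3 and 13 higher and 7 lower on water, and after centring on the gene median 3 higher and 10 lower on T3 and 4 higher and 14 lower on water. After centring on negative controls it was 6 higher and 7 lower on T3 and 5 higher and 12 lower on water, and without array 4 of both water groups 9 higher and 6 lower on T3 and 5 higher and 10 lower on water. The direction of small genotype differences therefore depended on the scaling. On the deposited values the median of all probe sets was itself 0.35 higher in TRα1+m on T3 and 0.357 higher on water. Shares of all probe sets called under these settings are not given here, so these splits are not read as a trait of the members. Leaving out the 2 water arrays changed the calls on T3 only through the shared estimate of spread. Scd3, Scd4, Fads2, Elovl5, Lpin1, Dgat2, Srebf2, Sqle and Sc5d kept their call on water, and Scd3, Scd4, Lpin1 and Cyp51 on T3, under all alternatives run for them, of which Scd3 and Sqle lay below the negative controls. The 2 genotype ranges did not overlap for 8 members on T3 (22.9%, against 20.1% of all probe sets) and 9 on water (25.7%, against 20.2%).

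Treated TRα1+m hearts were compared with untreated wild-type hearts to ask which members T3 brings to the wild-type level. On this scale 10 members were higher and 5 lower (42.9%, against 40.8% of all probe sets, 21.2% higher and 19.6% lower), and the ranges of 8 did not overlap (22.9%, against 22.1%). Of the 15 members that differed by genotype on water, 6 were not called here, namely Fads1, Fads2, Gpam, Dgat2, Fdps and Cyp51, which does not show that their levels were equal. Under another scaling 5 of these 6 were called, Gpam (-0.66, adjusted p = 0.00564) and Dgat2 (-0.52, adjusted p = 0.0126) after centring on the gene median, and Fads1 (0.36, adjusted p = 0.0434), Fdps (0.83, adjusted p = 0.00231) and Cyp51 (0.51, adjusted p = 0.0125) on the deposited values. Another 7 differed in the same direction as on water, namely Scd3, Scd4, Srebf2, Hmgcs1, Sqle, Sc5d and Dhcr7. Elovl5 and Lpin1, lower in TRα1+m on water, were higher here by 0.59 and 0.31, the second of which was -0.19 after centring on the gene median (adjusted p = 0.15). A further 6, Fads3, Agpat2, Mvk, Mvd, Fdft1 and Msmo1, were called here and not by genotype on water. Mvk, Scd3 and Sqle lay below the negative controls. Of the 15 members called in this comparison, 5 kept their call in all alternatives run for them, namely Scd3, Scd4, Hmgcs1, Fdft1 and Sc5d. The call of Mvk was lost in 11 of 32 alternatives and that of Msmo1 in 10 of 33. Both comparisons use the same untreated wild-type arrays. The split was 15 higher and 2 lower on the deposited values, 3 higher and 8 lower after centring on the gene median, and 10 higher and 4 lower after centring on negative controls. On the deposited values the median of all probe sets was itself 0.359 higher in treated TRα1+m, and shares of all probe sets are not given here.

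Other genes of the pathways were read from lists of related genes. Of 29 further fatty acid and glycerolipid genes listed, 26 were measured with a mean log2 above 4. The same held for 5 of 10 further sterol synthesis genes and 16 of 22 genes of sterol sensing, uptake and export. Of 26 further fatty acid and glycerolipid genes, T3 raised 7 and lowered 2 in TRα1+m (34.6%, against 16.5% of all probe sets) and raised 6 and lowered 1 in wild type (26.9%, against 12.7%). Agpat5, an acyltransferase relative of Agpat2, was higher on T3 by 0.97 ± 0.12 in TRα1+m (adjusted p = 2.74e-06) and 0.48 ± 0.11 in wild type (adjusted p = 0.00413). Hacd1 and Acsl5, which act in chain elongation and in activating fatty acids, were higher in TRα1+m by 0.68 ± 0.11 and 1.05 ± 0.17, and Lpin3, a relative of Lpin1, in wild type by 1.04 ± 0.17. The wild-type water arrays of Lpin3 read 5.09 to 6.15, all below the negative-control level of 6.44. Expression of Lpin3 on water was thus not shown. Of 16 genes of sterol sensing, uptake and export, T3 raised 5 and lowered 2 in TRα1+m and raised 6 and lowered 1 in wild type (43.8% in each, against 16.5% and 12.7%). Scarb1, the receptor for high-density lipoprotein, was higher on T3 in TRα1+m by 1.15 ± 0.18. In wild type Mlxipl, a carbohydrate-responsive activator of fatty acid synthesis genes, was higher by 1.05 ± 0.21 and Apoe, a lipoprotein component, by 0.56 ± 0.11, while Lpcat3, which remodels phospholipids, differed by -0.77 ± 0.12. Acsl5, Lpin3, Scarb1, Mlxipl, Apoe and Lpcat3 moved the same way in the other genotype, with an unadjusted limma p below 0.05. Hacd1 did not reach that level in wild type. In TRα1+m Mlxipl was higher by 1.34, the largest rise of its list. The interaction was called for 0 genes of these lists. Of 5 further sterol synthesis genes, 1 rose on T3 in each genotype (20.0%), Lbr, a sterol reductase of the nuclear envelope, by 0.47 ± 0.14 in TRα1+m and 0.52 ± 0.13 in wild type. By genotype on water, 4 of these 5 genes were higher in TRα1+m and 0 lower. On T3, 2 were higher and 0 lower. Of the 26 further fatty acid and glycerolipid genes, 1 was higher and 9 lower on water, and 3 and 8 on T3. Of the 16 sterol sensing, uptake and export genes, 3 were higher and 5 lower on water, and 3 and 4 on T3. Of all probe sets 19.2% were higher and 20.4% lower on water, and 17.8% each on T3. Counts under other scalings are not given here.

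Markers of other cell types moved with these contrasts, of which T3 called 16.5% of all probe sets in TRα1+m and 12.7% in wild type, and genotype 35.7% on T3 and 39.6% on water. On T3, 7 of 7 macrophage markers were higher in TRα1+m and 6 of 7 in wild type, and the log2 of their summed intensity ranged from 14.68 to 15.16 in TRα1+m on T3, against 12.57 to 13.11 on water, and from 14.92 to 15.08 in wild type on T3, against 13.49 to 14.2 on water. Endothelial markers were higher on T3 for 5 of 7 in each genotype, and fibroblast markers for 3 of 7 in TRα1+m and 5 of 7 in wild type. By genotype, 7 of 7 macrophage markers were lower in TRα1+m on water. Of 6 mesothelial markers 4 were lower in TRα1+m on T3 and 5 on water, with log2 summed intensities of 8.36 to 9.31 in TRα1+m on T3, against 9.54 to 10.17 in wild type on T3, and of 8.85 to 10.24 in TRα1+m on water, against 9.99 to 10.93 in wild type on water. Of these 6, 5 had a mean below the negative-control level in both TRα1+m groups and 2 in both wild-type groups. Of 3 Schwann cell markers 2 were lower in both treatments, and of 7 atrial markers 1 was lower on T3 and 2 on water, Bmp10 by -4.01 and Nr2f2 by -1.29. The summed level of 10 heart muscle markers stayed between 22.1 and 22.27 in every group, but 3 of them were higher and 2 lower in TRα1+m in each treatment, from -0.78 to 0.54 on T3 and from -0.82 to 0.48 on water. For T3, 1 heart muscle marker was higher in TRα1+m and 1 lower in wild type. Counts are of measured markers, 7 of 8 listed for each of macrophages, endothelium and fibroblasts, and 3 of 6 for Schwann cells. The part of these cells in the results was not tested.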

How the data were processed

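Whole hearts of 22 mice were measured on Clariom S Mouse arrays. Per the labels and the submitters' processing notes, the authors summarised probes with RMA in Transcriptome Analysis Console 4.0.1 and deposited log2 intensities. No source used here gives the genome build. The table held 28846 entries, 22206 of them gene probe sets, of which 19572 named 1 gene, 0 several and 2634 none. Because the deposited values of the genotypes differed in scale, all arrays were quantile normalized together with limma 3.58.1 in R 4.3.3. Such normalization assumes that intensity distributions should be alike, and the closing section gives the other scalings. A linear model with 4 group means was fitted to 21092 gene probe sets with a mean deposited log2 value above 4, with empirical Bayes moderation and Benjamini-Hochberg adjustment, and was first tested on simulated data with 200 changed genes. For each gene the probe set with the highest mean was used. The members and lists were chosen with earlier results of these data known. Every member is accounted for. Values per array are given for the members with the smallest adjusted p in the T3 contrasts (4 each) and the genotype contrasts (4 on water, 2 on T3) and for the regulators, and others shown per array, such as Scd1, Fads2 and Insig genes, were added for their role or after seeing the data. From the lists of related genes, up to 4 with the smallest adjusted p are named per T3 contrast. The nuclear receptor half-site was added to the motif search after seeing the data. The labels do not say whether animals shared litters, and array number limits the precision.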

Additional observations from a re-analysis of the deposited data

Results flagged for a closer look

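In groups of 5 or 6 arrays, 17 of 140 member levels had a highest or lowest array set apart from the rest by Dixon's criterion, which chance passes in about 1 of 20 groups. Array 4 of the TRα1+m water group accounted for 6 of them, with levels of 11.84 for Acly, 10.05 for Acaca, 12.03 for Fasn, 16.79 for Scd1, 11.01 for Elovl6 and 9.60 for Fads2, each above the rest of its group. Array 4 of the wild-type water group accounted for 3, with 8.89 for Acaca, 9.83 for Fasn and 13.86 for Scd1. Both arrays also held the highest Adipoq and Plin1 levels of their groups, and the part of fat cells in these levels was not tested.

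The other 8 lay in several arrays. In TRα1+m mice on T3, array 1 was low for Elovl5 (12.45), array 3 for Gpam (13.98), array 4 for Idi1 (7.18) and array 5 for Elovl6 (5.97) and Insig1 (9.17). In TRα1+m mice on water, array 1 was low for Srebf2 (9.73). In wild-type mice, array 6 on T3 was high for Lss (7.67) and array 3 on water was low for Sqle (3.62), the last below the negative-control level.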

How the results depend on the processing

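Of 55 called member differences, 30 kept their direction and call in all alternatives run for them, at most 33, and 25 were lost in 1 or more. Of 155 differences not called, 51 were called in 1 or more alternatives, 37 of them under another scaling and 11 without array 4 of both water groups. The interaction count was 0 and became 1, Dgat2, after centring on negative controls (adjusted p = 0.0487), with a filter at a mean above 6 (0.0486) and with trended, robust moderation (0.0218). Leaving out 1 array gave counts of called members between 8 and 9 for the T3 effect in TRα1+m and between 4 and 6 for that in wild type. The genotype difference gave 8 to 14 members on T3 and 14 to 16 on water, the treated mutants set against untreated wild type gave 11 to 17, and the interaction 0 to 1, where Dgat2 was called without wild-type water array 6 (0.0207) or TRα1+m T3 array 1 (0.0443). The genotype count on T3 was 8 without wild-type T3 array 4. On the deposited values, Fads1 on T3 turned to 0.36 (adjusted p = 0.0484), Mvk on T3 to 0.45 (0.0254), and Mvk in treated mutants set against untreated wild type to 0.0055 (0.981). Lpin1 in that last comparison turned to -0.19 (0.15) after centring on the gene median. The cause was not tested.

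With the replicate number as a block, the T3 effect was called for 8 members in TRα1+m and 5 in wild type. The genotype difference was called for 12 on T3 and 15 on water. Treated mutants against untreated wild type gave 15 and the interaction 0, the same totals as without the block. The members differed. For genotype on T3, Elovl5 was lost and Dhcr7 gained (-0.40, adjusted p = 0.0185). For treated mutants against untreated wild type, Msmo1 was lost and Scd1 gained (2.07, adjusted p = 0.0416). Whether equal numbers pair animals cannot be told from these values, since weak correlations do not exclude a pairing. Over 31 same-numbered pairs the deviations correlated with a median r of 0.031 (-0.255 to 0.293), against -0.001 over other pairs. Of the same-numbered pairs 9 had an r over 0.1, and 7 of 22 arrays matched best an array of their own number. Probe sets below the negative controls, such as Scd3, Mvk and Sqle, limit what can be said of low genes.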
